A study of Mus musculus with 5 samples.

Results

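A set of 35 genes of protein folding and stress control in the endoplasmic reticulum (ER) were followed across single-cell transcriptomes of mouse plasma cells, which are B-lineage cells that secrete antibody. They were chosen by name, from a list of chaperones, folding enzymes, degradation factors and stress sensors, and all 35 were found among the 33456 genes of the deposited tables. The cells were primary plasma cells of unimmunized, untreated male C57Bl6/N mice aged 8 to 12 weeks, sorted in 2 rounds as CD138-high, Ly6g- and CD11c- cells. The sort then used B220, the CD45 isoform of B cells, and 2NBDG, a glucose analog whose fluorescence reports its uptake. From the spleen came B220+2NBDG- cells, then B220-2NBDG- cells, then B220+2NBDG+ cells and last B220-2NBDG+ cells, and the fifth group were B220-2NBDG+ cells of the bone marrow. Each group was 1 library of cells pooled from 3 mice, stated as about 1000 cells, so a difference between 2 libraries has no replicate check, and the error given with it covers counting only. Series of 5 values are given in the order in which the groups are named here.

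Antibody chains are threaded into the ER, where Hsp70- and Hsp90-type chaperones hold them until they fold, disulfide isomerases join their cysteines and lectin chaperones read their sugars. Chains that fail to fold are drawn back into the cytosol by ER-associated degradation (ERAD) and destroyed. Unfolded chains also activate the unfolded protein response, in which the sensors IRE1 (gene Ern1), PERK (Eif2ak3) and ATF6 raise folding capacity, and the IRE1 target XBP1 is required for plasma cells to secrete antibody.

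Many of these genes carry a shared control sequence before their start, the ER stress response element (ERSE), which ATF6 and XBP1 can bind together with NF-Y. Promoter windows of 300 bases, from 250 bases before to 50 bases after the start, were given by RefSeq (GRCm38.p6) for 29 of the 35 genes and were searched on both strands. The ERSE, CCAAT and CCACG with 9 free bases between them, was found in 9 of the 29 (31.03%), against 0.1369% of the 27025 genes with a window and 0.1979% of the 7580 of them with at least 50 UMIs here. The 10 sites are shown because they are what these 9 promoters have in common, each read 5′ to 3′ in the direction of the motif, with the fixed letters in capitals and the free letters in lower case:
Calr (chr8:84847075-84847093): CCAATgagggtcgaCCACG
Canx (chr11:50325800-50325818): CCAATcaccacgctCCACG
Creld2 (chr15:88819520-88819538): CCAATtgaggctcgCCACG
Derl3 (chr10:75893242-75893260): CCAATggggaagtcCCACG
Dnajc3 (chr14:118937827-118937845): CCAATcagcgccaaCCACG
Hsp90b1 (chr10:86705533-86705551): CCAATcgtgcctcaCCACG
Hsp90b1 (chr10:86705638-86705656): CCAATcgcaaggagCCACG
Hspa5 (chr2:34772025-34772043): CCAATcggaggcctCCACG
Pdia6 (chr12:17266491-17266509): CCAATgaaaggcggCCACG
Syvn1 (chr19:6046532-6046550): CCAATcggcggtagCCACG
The motif ran on the strand opposite the gene in Calr, Creld2, Derl3 and the nearer Hsp90b1 site, and on the gene's strand in the others. The shorter relative ERSE-II, ATTGG and CCACG with 1 free base between them, was found in Dnajb11 and Herpud1 (0.0444% of all genes), in Dnajb11 after the start:
Dnajb11 (chr16:22857852-22857862): ATTGGcCCACG
Herpud1 (chr8:94386377-94386387): ATTGGgCCACG
The letters TGACGTGG, known as the unfolded protein response element, were found in Txndc5 and Txndc11 (0.7142% of all genes). CCACG alone, which ends both ERSE forms, was in 27 of the 29 and in 35.48% of all genes. Sequence before the start, up to the first base that GENCODE M21 places in an exon, is shown 5′ to 3′ for 3 genes with an ERSE that differed widely between libraries and for Herpud1, which did not, with each match in capitals, which reads as the reverse complement where the motif is on the opposite strand:
Hsp90b1 (chr10:86705510-86705694, minus strand): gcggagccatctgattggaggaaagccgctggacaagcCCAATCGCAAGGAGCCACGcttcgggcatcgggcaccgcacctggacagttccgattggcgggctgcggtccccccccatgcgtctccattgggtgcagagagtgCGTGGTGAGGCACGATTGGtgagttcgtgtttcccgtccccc
Pdia6 (chr12:17266339-17266544, plus strand): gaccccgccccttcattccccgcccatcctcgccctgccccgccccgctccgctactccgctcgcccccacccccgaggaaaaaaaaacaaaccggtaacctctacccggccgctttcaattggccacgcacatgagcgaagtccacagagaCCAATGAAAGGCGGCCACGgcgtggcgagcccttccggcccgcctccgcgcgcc
Calr (chr8:84846935-84847181, minus strand): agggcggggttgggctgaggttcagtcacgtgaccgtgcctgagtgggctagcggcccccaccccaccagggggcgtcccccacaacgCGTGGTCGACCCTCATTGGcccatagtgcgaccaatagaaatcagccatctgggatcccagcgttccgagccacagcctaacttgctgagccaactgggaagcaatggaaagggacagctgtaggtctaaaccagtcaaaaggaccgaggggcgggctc
Herpud1 (chr8:94386179-94386428, plus strand): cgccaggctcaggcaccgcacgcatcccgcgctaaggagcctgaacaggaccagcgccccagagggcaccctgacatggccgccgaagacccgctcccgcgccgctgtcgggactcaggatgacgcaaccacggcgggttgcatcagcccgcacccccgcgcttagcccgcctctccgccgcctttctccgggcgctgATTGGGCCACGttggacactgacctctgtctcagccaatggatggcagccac
Hsp90b1 held 2 sites on opposite strands, with bases 194 to 212 and 89 to 107 before the start. The Pdia6 site lay at bases 80 to 98, the Calr site at bases 144 to 162 and the Herpud1 site at bases 42 to 52 before the start. A match describes the letters and not a bound site.

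After 8 T cell-like cells were left out, the 5 libraries held between 894 and 1295 cells and between 9451886 and 15591435 UMIs, with medians of 9829 to 15502 UMIs per cell. Immunoglobulin transcripts took 47.0%, 63.3%, 64.8%, 58.2% and 61.5% of the UMIs, and levels are therefore given as CPM, UMIs per 1000000 of the non-immunoglobulin UMIs. Jchain, which encodes the joining chain of IgM and IgA, still took 10.0%, 23.1%, 19.4%, 27.0% and 29.7% of those. A cluster led by cell cycle genes held 175, 18, 12, 1 and 0 cells. Of the plasma cell markers, Sdc1 (CD138) stood at 402 to 609 CPM and Xbp1 at 3648, 3237, 4365, 3846 and 3588 CPM. Some markers of T cells, macrophages, natural killer cells and megakaryocytes were at 0 in every library (Trbc1 and Cd8a, Adgre1 and Cd14, Ncr1 and Nkg7, Pf4 and Ppbp), but other genes of these lists were detected. The macrophage or monocyte list summed to 24.4 to 41.2 CPM with 3 of 10 genes at 0. The natural killer list summed to 5.25 to 8.80 CPM with 3 of 7 at 0, and the megakaryocyte list to 1.17 to 4.01 CPM. The plasmacytoid dendritic cell list summed to 459 to 622 CPM and the stromal or endothelial list to 23.4 to 35.5 CPM. The neutrophil list summed to at most 3.19 CPM. The T cell list summed to 17.7 to 80.4 CPM with 3 of 12 genes at 0, the B cell list to 1903 to 3210 CPM led by Ly6d, and the cycling list to 85.9 to 2143 CPM. Their part in the results was not tested. In all, 11 cell barcodes occurred in more than 1 library, at most 4 in any pair.

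The 35 genes together were highest in splenic B220+2NBDG- cells and lowest in bone marrow cells. They took 5.45%, 3.46%, 4.45%, 2.95% and 2.43% of the non-immunoglobulin UMIs. With Jchain left out of the total the shares were 6.06%, 4.49%, 5.51%, 4.04% and 3.45%, in the same order from high to low, and over all UMIs they were 2.89%, 1.27%, 1.56%, 1.23% and 0.935%. Without the cycling cluster the splenic B220+2NBDG- share was 5.61%. Of the 35 genes, 24 were highest in the splenic B220+2NBDG- library, 5 in B220+2NBDG+, 3 in splenic B220-2NBDG+, 2 in B220-2NBDG- and 1 in bone marrow, whereas 28 were lowest in bone marrow. Highest and lowest libraries were not counted over all genes, most of which leaned the same way. Of 4026 genes with enough UMIs, 71.3% were higher in splenic B220+2NBDG- than in B220-2NBDG- cells. Only 25.2% of 3490 were higher in bone marrow than in splenic B220-2NBDG+ cells. All 35 had a mean of at least 10 CPM over the libraries, and only Edem3, at 23.4 CPM, had a mean under 25.

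**Figure D1:**
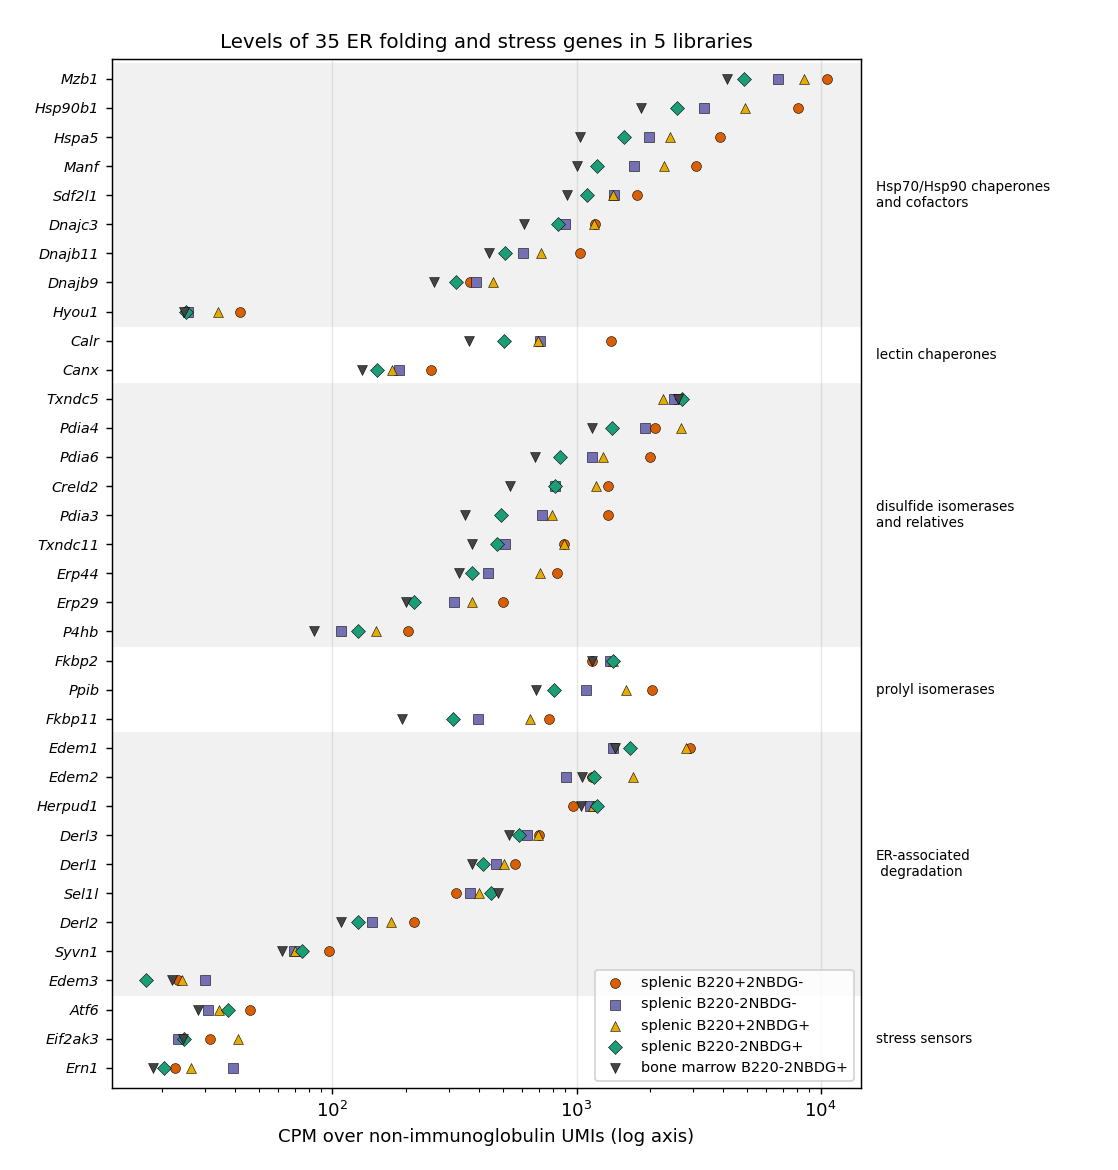
Level of each of the 35 genes in each of the 5 libraries, as CPM over non-immunoglobulin UMIs on a log axis, grouped by role. Orange circles (splenic B220+2NBDG-) lie farthest right for 24 genes and dark triangles (bone marrow) farthest left for 28, while Txndc5, Herpud1 and Fkbp2 form tight groups and Sel1l runs in the opposite order. The same counts were not made over all genes.

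Among the Hsp70- and Hsp90-type chaperones and their cofactors, all except Dnajb9 were highest in splenic B220+2NBDG- cells, and every member of the group was lowest in bone marrow. Hsp90b1 (GRP94, the ER Hsp90; chr10:86690209-86705509 in GRCm38) stood at 8097, 3330, 4905, 2589 and 1830 CPM. Hspa5 (BiP, the ER Hsp70, which holds free heavy chains; chr2:34771970-34777547) stood at 3859, 1988, 2412, 1568 and 1036 CPM. Both B220+ libraries were above both splenic B220- libraries for each of the 2 genes.

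Mzb1, a cofactor of GRP94 in B-lineage cells, was the highest of the 35 by CPM at 10601, 6721, 8538, 4876 and 4131. Manf, a BiP-binding factor that can also be secreted, stood at 3097, 1720, 2288, 1208 and 1005 CPM. Dnajb11, an Hsp40 partner of BiP, stood at 1030, 603, 714, 512 and 437 CPM. These 3 again had both B220+ libraries above the others. Hyou1, an Hsp110-type exchange factor, was among the lowest at 42.0, 25.6, 33.9, 25.1 and 24.6 CPM, from 99 to 280 UMIs a library. The remaining BiP cochaperones Dnajc3, Dnajb9 and Sdf2l1 spread less, with a highest library 1.96, 1.74 and 1.93 times the lowest.

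Both lectin chaperones, which bind glycoproteins with trimmed sugars, were highest in splenic B220+2NBDG- cells. Calr (calreticulin; chr8:84841850-84846934) stood at 1391, 707, 697, 506 and 362 CPM, so that splenic B220+2NBDG- cells were well above the rest, with B220-2NBDG- and B220+2NBDG+ cells nearly level. Canx (calnexin), its membrane-bound relative, ranged from 133 to 254 CPM.

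The disulfide isomerases did not all follow 1 order. Pdia3, the partner of the lectin chaperones, stood at 1344, 723, 794, 492 and 348 CPM, and Pdia6, an isomerase that works with BiP, at 2008, 1158, 1286, 856 and 675 CPM, both with the splenic B220+2NBDG- library well above the rest. Pdia4 was instead highest in B220+2NBDG+ cells, at 2102, 1911, 2685, 1399 and 1156 CPM. Txndc11, a thioredoxin-like protein, was level in both B220+ libraries, at 886, 508, 891, 475 and 373 CPM.

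Erp44, which retains unassembled secretory proteins and returns them to the ER, stood at 832, 435, 712, 375 and 329 CPM. Erp29, a relative without oxidoreductase activity, stood at 499, 315, 373, 216 and 199 CPM, and Creld2, an ER stress-inducible protein, at 1352, 817, 1207, 819 and 536 CPM. All 3 had both B220+ libraries above the rest. P4hb, which encodes the classical protein disulfide isomerase, was low in every library at 204, 109, 151, 127 and 83.7 CPM.

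Txndc5, which encodes a thioredoxin-domain isomerase abundant in plasma cells (chr13:38500079-38528824), differed least among the 35, at 2525, 2497, 2254, 2707 and 2613 CPM. For Hsp90b1, which differed most, the highest library was 4.42 times the lowest. It nevertheless differed widely between isotypes, as the isotype comparison shows.

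Of the prolyl isomerases, which turn proline bonds during folding, Ppib stood at 2032, 1089, 1600, 806.5 and 682 CPM. Fkbp11, a secretory-cell isomerase (chr15:98724366-98728198), stood at 769, 395, 646, 313 and 194 CPM. Both were clearly higher in the B220+ libraries, whereas Fkbp2 lay between 1157 and 1415 CPM with no such order.

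ERAD factors were the most mixed group. Edem1, which takes misfolded glycoproteins out of the folding cycle (chr6:108828641-108859356), stood at 2922, 1410, 2812, 1651 and 1440 CPM, with both B220+ libraries nearly level. Edem2, which starts the mannose trimming that marks such chains, was highest in B220+2NBDG+ cells at 1702 CPM and lowest in B220-2NBDG- cells at 903 CPM. Sel1l (chr12:91806043-91849157), the scaffold of the ubiquitin ligase Syvn1 (HRD1), stood at 320, 366, 398, 448 and 479 CPM, the only gene of the 35 that was highest in bone marrow.

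Syvn1 itself ranged from 62.3 to 96.8 CPM and was highest where Sel1l was lowest. Herpud1, an ERAD adaptor strongly induced by ER stress in many cells (chr8:94386438-94395377), was nearly even at 967, 1131, 1169, 1215 and 1047 CPM. The derlins, membrane proteins of the ERAD channel, were highest in splenic B220+2NBDG- cells and lowest in bone marrow, with ranges of 375 to 558 CPM for Derl1, 109 to 217 for Derl2 and 527 to 701 for Derl3. Edem3 was counted 68 to 155 times a library.

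The transcripts of the 3 sensors were scarce and did not share an order. Atf6 ranged from 28.1 to 46.1 CPM and was highest in splenic B220+2NBDG- cells. Ern1 stood at 22.7, 39.3, 26.2, 20.5 and 18.4 CPM, highest in splenic B220-2NBDG- cells, and Eif2ak3 at 31.7, 23.3, 41.2, 24.6 and 24.4 CPM, highest in B220+2NBDG+ cells. They rested on 81 to 307 UMIs a library, so their ratios carry wide counting intervals. The spliced form of Xbp1, the direct product of IRE1, cannot be read from these gene counts.

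With B220 as the variable, most of the 35 genes were higher in the B220+ library of each pair. In 2NBDG+ cells 29 of 35 had a ratio above 1 with a median log2 ratio of 0.49, where 67.8% of 3715 genes with enough UMIs had a ratio above 1 with a median of 0.14. In 2NBDG- cells 29 of 35 were again above 1 with a median of 0.58, against 71.3% of 4026 genes and a median of 0.24. The 2 pairs have no library in common. In both pairs 26 of the 35 were above 1, where 55.6% of the 3590 genes with enough UMIs in both were. At least 1.5-fold higher in both were 12 of the 35, where 4.35% of those genes were: Hspa5, Hsp90b1, Mzb1, Manf, Pdia3, Pdia6, Txndc11, Erp44, Erp29, Ppib, Fkbp11 and Edem1.

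Ratios are the B220+ over the B220- level, and the interval is an exact 95% binomial interval. Hsp90b1 was 2.43-fold (2.39 to 2.47) higher in B220+ cells among 2NBDG- cells and 1.89-fold (1.85 to 1.94) among 2NBDG+ cells. For Fkbp11 the ratios were 1.95 (1.85 to 2.05) in 2NBDG- and 2.06 (1.93 to 2.20) in 2NBDG+ cells, and for Edem1 they were 2.07 (2.02 to 2.13) and 1.70 (1.65 to 1.75). A gene was counted as different at a 2-fold ratio if its higher library had 25 CPM or more, from 50 UMIs or more. By that rule 2 of 35 passed in 2NBDG- cells (Hsp90b1 and Edem1) and 1 in 2NBDG+ cells (Fkbp11). The rates over all genes with enough UMIs were 5.91% and 2.45% higher. At 1.5-fold, 17 of 35 were higher in 2NBDG- cells (21% of all genes) and 14 of 35 in 2NBDG+ cells (9.02%). Without Jchain 10 and 11 of 35 were, and shares over all genes at 1.5-fold were not made there. None of the 35 was 2-fold lower in either pair (3.18% and 1.48% of all genes), and none was 1.5-fold lower in 2NBDG+ cells (3.77%).

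The ratios of others of the 12 were between 1.58 and 1.98 in both pairs: Ppib (1.87-fold and 1.98-fold in 2NBDG- and 2NBDG+ cells), Erp44 (1.91 and 1.90), Manf (1.80 and 1.89), Txndc11 (1.75 and 1.88), Mzb1 (1.58 and 1.75) and Erp29 (1.59 and 1.72). Calr, Pdia3, Hspa5 and Pdia6 had larger ratios among 2NBDG- cells, at 1.97, 1.86, 1.94 and 1.73, than among 2NBDG+ cells, at 1.38, 1.61, 1.54 and 1.503. P4hb stood at 1.88 and 1.18 and Dnajb11 at 1.71 and 1.40 in the same order. These are differences between pairs of single libraries and were not tested.

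Sel1l, Herpud1 and Fkbp2 had ratios below 1 in both pairs, where 17.1% of all genes did. Sel1l was 1.14-fold lower in B220+ cells among 2NBDG- cells and 1.12-fold lower among 2NBDG+ cells. Ern1 was 1.73-fold lower (exact 95% interval of the B220+ over B220- ratio 0.464 to 0.716) among 2NBDG- cells, the one gene past 1.5-fold in that direction, where 6.41% of all genes were. Among 2NBDG+ cells its ratio was 1.28 (0.968 to 1.70), which includes 1. Eif2ak3 was 1.68-fold (1.32 to 2.15) higher in B220+ cells among 2NBDG+ cells and 1.36-fold (1.08 to 1.72) among 2NBDG- cells.

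**Figure D2:**
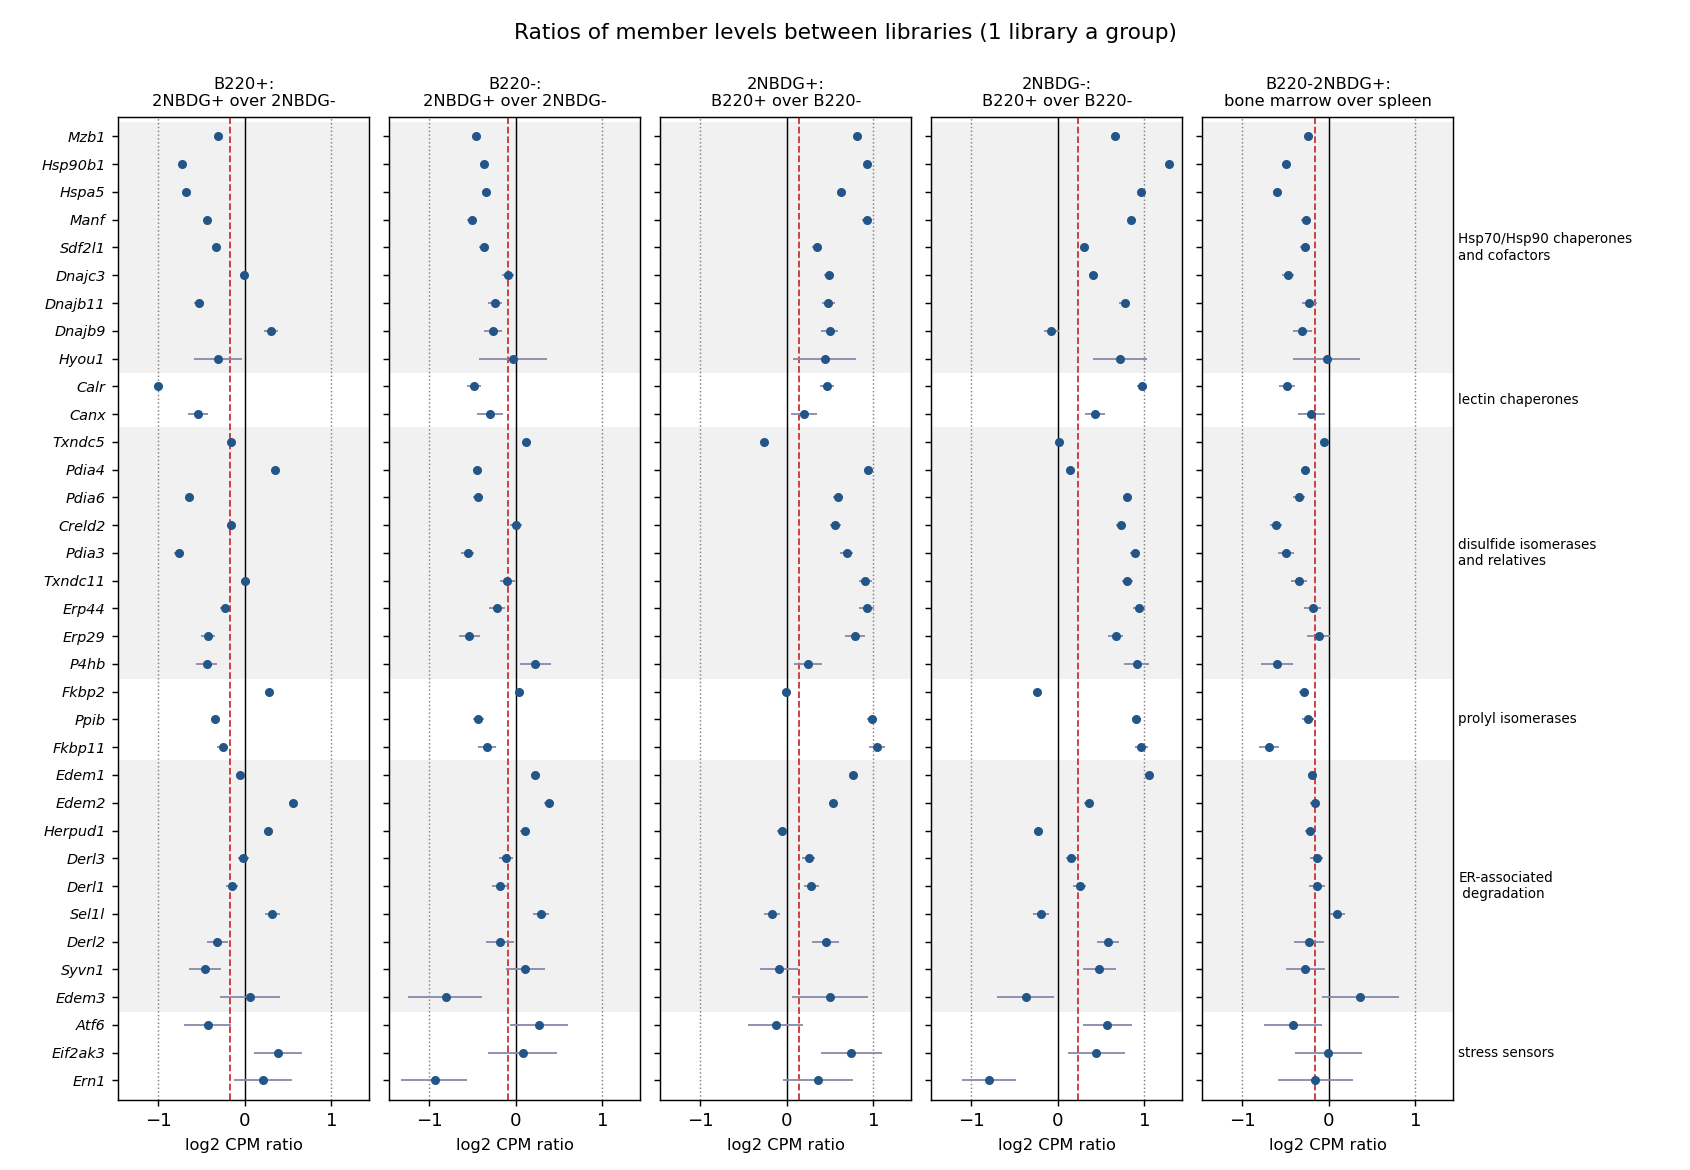
Log2 ratio of each gene's level between libraries in the 5 comparisons, with exact 95% binomial intervals that cover counting error only. Dotted lines mark 2-fold and the dashed red line the median of all genes with enough UMIs. In both B220 panels most points lie right of the red line (member medians 0.49 and 0.58), and in the other 3 panels the points lie around or left of it.

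The libraries differ in Jchain, in cycling cells and in isotypes as well as in the sort. Leaving Jchain out of the total brought the median of all genes to -0.013 and -0.011 in the 2NBDG+ and 2NBDG- pairs and the members' median to 0.35 and 0.36, with 29 and 26 of 35 above 1. Only Hsp90b1 then passed 2-fold higher in 2NBDG- cells and none in 2NBDG+ cells, while Ern1 passed 2-fold lower in 2NBDG- cells. Over all genes without Jchain, 173 of 4491 passed 2-fold higher and 219 lower in 2NBDG- cells, and 82 of 4370 higher in 2NBDG+ cells. Over all UMIs, immunoglobulins included, 27 and 34 of 35 were above 1, and 18 passed 2-fold higher in 2NBDG- cells. The medians were then 0.25 and 1.11 for the members and -0.11 and 0.81 for all genes. In 2NBDG- cells 813 of 2482 genes passed 2-fold higher over all UMIs. In 2NBDG+ cells 7 members passed 1.5-fold higher over all UMIs, and 8 did within IgM cells. Counts over all genes at 1.5-fold were not made in these 2 settings. Without the cycling cluster the medians were 0.49 and 0.64. IgM cells made up 58.4%, 83.3%, 39.2%, 62.4% and 31.3% of the libraries, and IgG cells 34.3%, 5.71%, 49.0%, 13.1% and 8.96%. Within IgM cells alone the members' medians were 0.34 and 0.63, with 31 and 29 of 35 above 1, and the medians of all genes were 0.083 and 0.25. Within IgG cells the members' medians were 0.38 and 0.20, with 29 and 25 above 1, and within IgA cells 0.50 and 0.080, with 31 and 24 above 1. Values over all genes were not made within IgG or IgA cells. Over cells of every isotype 67.8% and 71.3% of all genes were above 1.

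Glucose analog uptake went with smaller differences. Among B220+ cells 10 of 35 genes were higher and 25 lower in 2NBDG+ cells, with a median of -0.25, where 31.6% of 3987 genes were above 1 with a median of -0.17. Among B220- cells 11 were higher and 24 lower with a median of -0.21, where 34.9% of 3687 genes were above 1 with a median of -0.085. None of the 35 passed 2-fold in either pair, where 4.61% and 2.12% of all genes did so downward and 1.15% and 0.895% upward.

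Among B220+ cells the largest differences were in Calr, Pdia3, Hsp90b1, Hspa5 and Pdia6. Calr was 1.99-fold lower in 2NBDG+ than in 2NBDG- cells among B220+ cells, just inside the 2-fold line, and 1.40-fold lower among B220- cells. Pdia3 was 1.69-fold and 1.47-fold lower, Hsp90b1 1.65-fold and 1.29-fold, Hspa5 1.60-fold and 1.27-fold and Pdia6 1.56-fold and 1.35-fold. These 5 were the only genes of the 35 at least 1.5-fold lower among B220+ cells, where 14.4% of all genes were, and none was 1.5-fold higher (3.61% of all genes). The count of 5 became 2 without Jchain (Calr and Pdia3), 9 in IgM cells and 23 over all UMIs, where the median of all genes was -0.79. Counts over all genes at 1.5-fold were not made in these settings. Among B220- cells 2 members were at least 1.5-fold lower, Ern1 (1.92-fold) and Edem3 (1.75-fold), where 5.18% of all genes were. Again none was 1.5-fold higher (1.98%). Over all UMIs neither passed.

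Against that direction, Edem2 was 1.47-fold (1.43 to 1.52) higher in 2NBDG+ cells among B220+ cells and 1.30-fold (1.25 to 1.36) among B220- cells. Sel1l was 1.25-fold and 1.22-fold higher and Herpud1 1.21-fold and 1.07-fold. With Eif2ak3 and Fkbp2 they made up the 5 genes above 1 in both pairs (15.6% of 3523 genes with enough UMIs in both), while 19 were below 1 in both (47.3% of those genes) and 11 were above 1 in only one of the pairs. Leaving Jchain out brought the median of all genes to 0.0032 and -0.0067 and the members' median to -0.095 and -0.14, with 14 and 12 of 35 above 1. Over all UMIs, of which immunoglobulins took a smaller share in the splenic B220+2NBDG- library, the members' B220+ median was -0.84, 0 of 35 were above 1 and 11 members passed 2-fold lower. The median of all genes was then -0.79, and 705 of 2458 passed 2-fold lower. Among B220- cells the members' median over all UMIs was -0.026, with 17 of 35 above 1, and that of all genes was 0.11. In the cycling cluster of the splenic B220+2NBDG- library Calr stood at 1668 CPM against 1280 CPM in its other cells, and without that cluster the B220+ median was -0.28.

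Bone marrow B220-2NBDG+ cells had slightly lower levels than splenic cells of the same sort for nearly every gene. Of 35, 33 were lower, with a median of -0.24, where 25.2% of 3490 genes were above 1 with a median of -0.16. None passed 2-fold (1.40% of all genes lower and 1.17% higher), and 4 passed 1.5-fold lower (6.25% of all genes). The 4 were Fkbp11 (1.62-fold), Creld2 (1.53), P4hb (1.52) and Hspa5 (1.51). The count was 1 without Jchain, 0 with TMM factors, 7 over all UMIs and 3 in IgM cells. Counts over all genes at 1.5-fold were not made in those settings. None of the 35 was 1.5-fold higher (2.23% of all genes), and only Sel1l (1.07-fold) and Edem3 (1.29-fold, from 68 and 125 UMIs) were higher at all. With Jchain left out, 30 were lower with a median of -0.19, and with TMM factors 26 were lower with a median of -0.084. The medians of all genes were then -0.11 and 0.0025. Within IgM, IgG and IgA cells 29, 29 and 27 of 35 were lower, while IgA cells were 59.0% of the bone marrow library and 23.9% of the splenic one. Shares over all genes were not counted within isotypes. In IgM cells the median was -0.27 for the members and -0.032 for all genes.

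The 9 genes with an ERSE were set beside the 20 with a window but no ERSE. The 6 members without a window (Hyou1, Manf, Mzb1, Erp29, Derl1 and Atf6) were in neither group. Between 2NBDG+ and 2NBDG- cells among B220+ cells the medians were -0.54 and -0.024. All 9 were below 1 there, where 31.6% of 3987 genes were above 1 with a median of -0.17. Without Jchain the median of all genes was 0.0032. Of the 9, Dnajc3 and Derl3 lay at -0.012 and -0.015, and without Jchain at 0.15 and 0.14. Among B220- cells the medians were -0.30 and -0.20. Between B220+ and B220- cells they were 0.49 and 0.49 among 2NBDG+ cells and 0.73 and 0.40 among 2NBDG- cells, and between bone marrow and spleen -0.47 and -0.23. These differences between the 9 and the 20 genes were not tested.

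Another 56 genes of the same pathways, not members, gave the setting: 12 transcription factors and feedback genes, 24 of oxidative and glycoprotein folding and 20 of ERAD. Of the 47 with a mean of at least 10 CPM, few passed 2-fold. Mogs, the glucosidase that removes the first glucose of the glycan, stood at 32.6, 13.3, 13.5, 12.2 and 9.03 CPM and was 2.41-fold lower in 2NBDG+ than 2NBDG- cells among B220+ cells, and 2.45-fold higher in B220+ than B220- cells among 2NBDG- cells. Prkcsh, a subunit of the next glucosidase, was 2.02-fold lower in the first of these. Ddit3 (CHOP, a stress factor linked to cell death) stood at 24.8, 51.2, 26.8, 40.0 and 25.1 CPM and was 2.07-fold lower in B220+ than B220- cells among 2NBDG- cells.

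Medians of these groups stayed nearer to those of all genes than the members' did in the B220 pairs. In 2NBDG+ cells the 16 measured genes of oxidative and glycoprotein folding had a median of 0.12 and the 20 of ERAD 0.099, beside 0.49 for the members. The 11 measured transcription factors and feedback genes had 0.18. In 2NBDG- cells the 3 groups had 0.35, 0.34 and 0.045, beside 0.58. These are descriptions of lists chosen with earlier results known, and the lists were not tested against each other.

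Isotypes allowed a test, because IgM, IgG and IgA cells occurred in every library and could be compared within it. Cells were called by isotype from heavy-chain UMIs, their counts were summed per library and isotype, and sums were compared over the 5 libraries with edgeR's quasi-likelihood test with the library as block. P-values were adjusted over 7948 genes, all 35 members among them. No source says that the pools came from different mice, so the p-values measure the spread between these 5 libraries. In each IgG group between 74 and 552 cells were summed.

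In IgG cells 10 of the 35 genes were higher than in IgM cells and 2 were lower, where 2.59% of all genes tested were higher and 3.70% lower. The members' median log2 difference was 0.22, and that of all genes 0.0041. The higher genes were Hsp90b1, Mzb1, Manf and Dnajb9 of the chaperone group, Txndc11 and Erp44 of the disulfide group, Ppib and Fkbp11 of the prolyl isomerases, and Edem1 and Edem2 of ERAD. The lower were Txndc5 and Herpud1. No lectin chaperone and no sensor passed, and 15 of 35 were higher in IgG cells in all 5 libraries, where 11.3% of the 5878 tested genes with a mean of at least 10 CPM were.

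Hsp90b1 stood at 6746, 2678, 3427, 2347 and 1631 CPM in IgM cells and at 9982, 6284, 6261, 4043 and 2024 CPM in IgG cells of the same libraries. It was higher in IgG cells in 5 of 5 libraries, by 0.71 ± 0.11 (SE) on the log2 scale (edgeR adjusted p = 0.00025). The gap was narrow in bone marrow and widest in splenic B220-2NBDG- cells. Fkbp11 went from 772, 333, 508, 302 and 179 CPM in IgM cells to 817, 769, 808, 536 and 318 CPM in IgG cells (0.65 ± 0.14, edgeR adjusted p = 0.0050). Txndc11 rose by 0.63 ± 0.11 (edgeR adjusted p = 0.0011), Erp44 by 0.55 ± 0.10 (0.0013) and Edem1 by 0.55 ± 0.13 (0.0080).

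Txndc5 moved the other way and by more than any other member. It stood at 3466, 2603, 3575, 3083 and 3142 CPM in IgM cells, at 1093, 1039, 1016, 1426 and 2037 CPM in IgG cells and at 2673, 2516, 2983, 2406 and 2411 CPM in IgA cells. The IgG values lay below every IgM and every IgA value. Against IgM cells the log2 difference was -1.33 ± 0.14 (edgeR adjusted p = 2.55e-06) and against IgA cells -1.15 ± 0.14 (edgeR adjusted p = 9.11e-06). The 2 libraries richest in IgG cells, both B220+, also had the highest Txndc5 levels in their IgM cells, at 3466 and 3575 CPM.

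Herpud1 also fell in IgG cells, from 1018, 1222, 1402, 1387 and 1197 CPM in IgM cells to 875, 759, 995, 890 and 867 CPM, with no overlap between the 2 sets (-0.55 ± 0.11, edgeR adjusted p = 0.0023). Of the 12 calls between IgG and IgM, 8 held in every fit with the library as block: Hsp90b1, Mzb1, Txndc5, Edem1, Erp44, Herpud1, Fkbp11 and Txndc11. Ppib and Manf were lost without the B220+2NBDG+ or the splenic B220-2NBDG+ library, Edem2 without either of these or B220-2NBDG-, and Dnajb9 without any one library other than B220+2NBDG-. Without either the B220+2NBDG+ or the splenic B220-2NBDG+ library 6 genes were higher. Without the library block 0 were higher and only Txndc5 was lower.

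**Figure D3:**
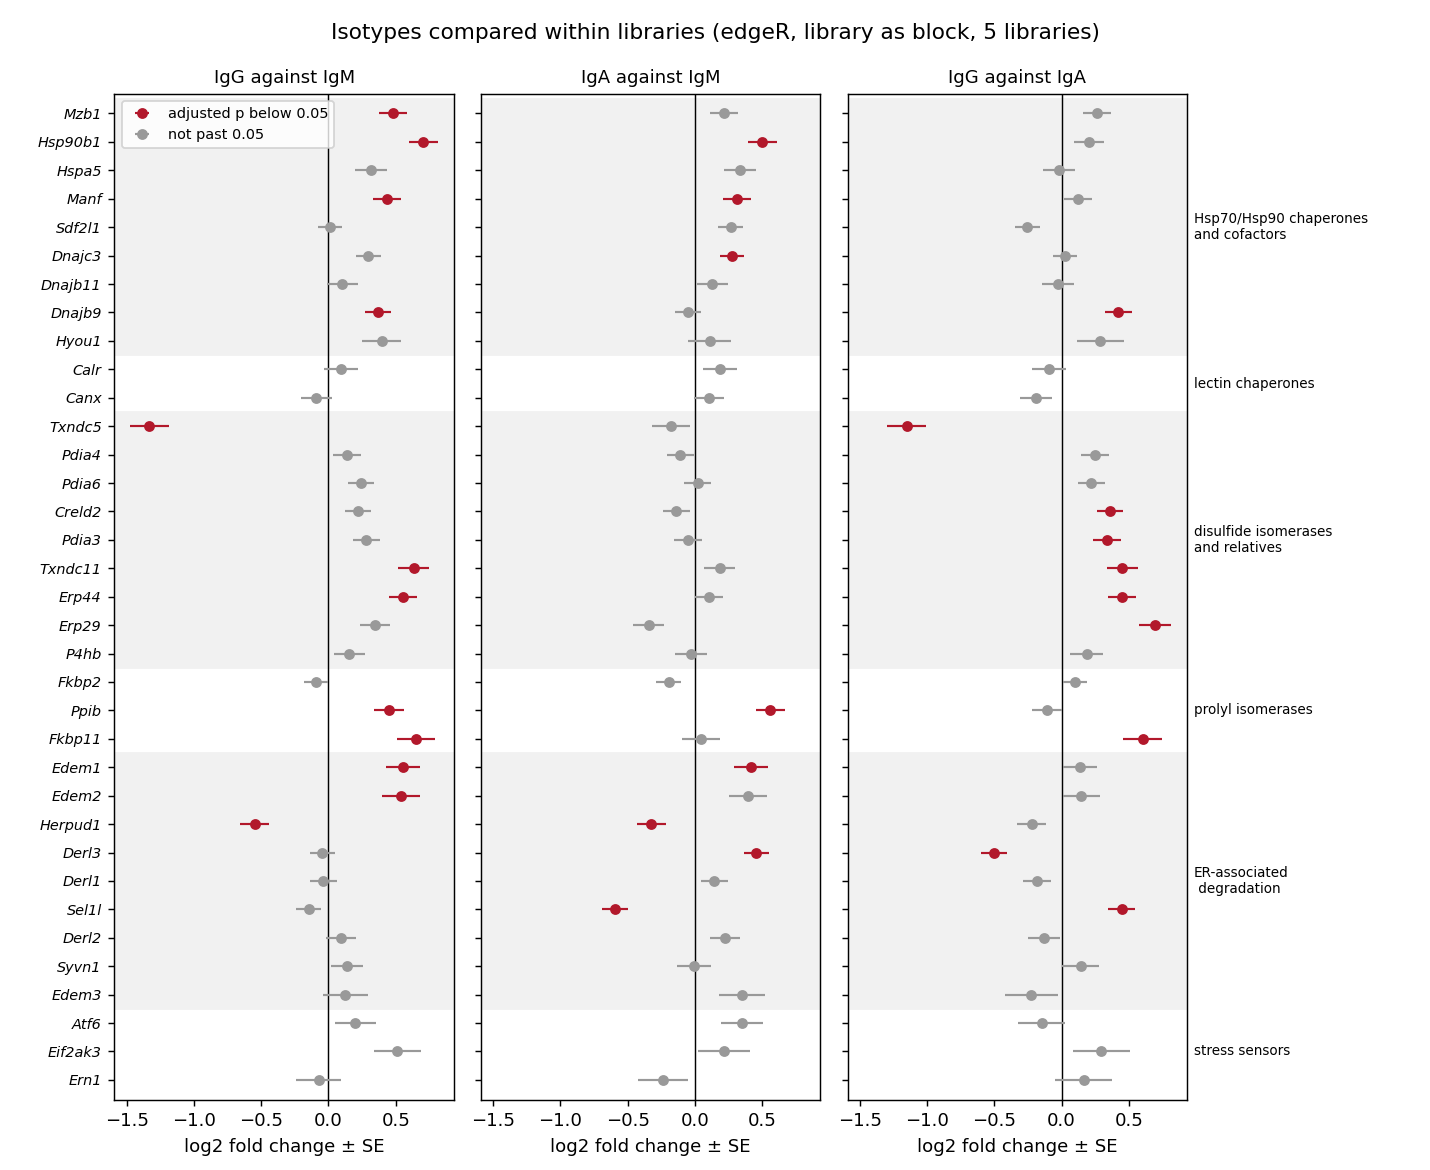
Log2 differences between isotypes within libraries for the 35 genes, with standard errors, from edgeR sums of 5 libraries with the library as block. Red points passed an adjusted p of 0.05 over 7948 genes: 12 between IgG and IgM, 8 between IgA and IgM and 10 between IgG and IgA, with Txndc5 far to the left in both IgG panels.

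In IgA cells 6 of the 35 genes were higher than in IgM cells and 2 were lower, where 6.29% of all genes were higher and 6.87% lower. The members' median was 0.13. Ppib (0.56 ± 0.11, edgeR adjusted p = 0.00094), Hsp90b1 (0.50 ± 0.11, 0.0028), Edem1 (0.41 ± 0.13, 0.031), Manf (0.31 ± 0.10, 0.0499) and Dnajc3 (0.27 ± 0.09, 0.049) rose together with Derl3. Derl3, the derlin of secretory cells, stood at 648, 600, 704, 569 and 426 CPM in IgM cells and 888, 844, 725, 649 and 615 CPM in IgA cells. It was higher in 5 of 5 libraries by 0.46 ± 0.09 (edgeR adjusted p = 0.0014), and the difference was smallest in B220+2NBDG+ cells.

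Sel1l fell from 338, 382, 408, 498 and 687 CPM in IgM cells to 211, 252, 299, 316 and 320 CPM in IgA cells (-0.59 ± 0.10, edgeR adjusted p = 0.00014). No IgA value reached the lowest IgM value. In IgM and IgG cells Sel1l was highest in bone marrow, at 687 and 603 CPM, whereas in IgA cells bone marrow and splenic B220-2NBDG+ cells were level at 320 and 316 CPM. Herpud1 was lower as well (-0.33 ± 0.11, edgeR adjusted p = 0.048), a call lost without any one of 3 libraries and in 4 other settings.

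Hsp90b1, Ppib, Derl3 and Sel1l kept their calls in every fit with the library as block, and the others did not. Without the B220-2NBDG- or the B220+2NBDG+ library 3 genes were higher in place of 6, and without the splenic B220-2NBDG+ or the bone marrow library 4 were. The B220-2NBDG- library gave the widest gaps, with Hsp90b1 at 2678 CPM in its IgM and 6299 CPM in its IgA cells. Of its 135 IgA cells 101 lay in a cluster led by Lgals3, Anxa2 and S100a6, where the 35 genes took 5.35% of non-immunoglobulin UMIs against 2.94% in its other IgA cells. In splenic B220+2NBDG- cells 52 of 77 IgA cells lay there (5.70% against 4.62%), and in the other libraries 18 of 97, 3 of 214 and 0 of 553. Clustering used all genes outside the immunoglobulin loci, so these shares are a description.

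Between IgG and IgA cells 8 of the 35 genes were higher in IgG cells and 2 were lower, where 4.94% and 4.63% of all genes were. Erp29 differed most among the higher, at 563, 585, 444, 310 and 250 CPM in IgG cells and 356, 316, 270, 152 and 136 CPM in IgA cells (0.69 ± 0.12, edgeR adjusted p = 0.00037), in 5 of 5 libraries. Fkbp11 (0.60 ± 0.14, 0.0083), Txndc11 (0.45 ± 0.12, 0.015), Erp44 (0.45 ± 0.11, 0.0067), Sel1l (0.45 ± 0.10, 0.0054), Dnajb9 (0.42 ± 0.10, 0.0081), Creld2 (0.36 ± 0.10, 0.020) and Pdia3 (0.34 ± 0.10, 0.045) were also higher (log2 difference ± SE, then the edgeR adjusted p).

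Of these 8 genes, 5 were disulfide isomerases or their relatives, a role held by 9 of the 35 genes, and the 2 shares were not tested against each other. Of the 5, only Erp29 kept its call in every fit with the library as block. Txndc5, of the same role, went the other way. Derl3 was lower in IgG cells (-0.50 ± 0.10, edgeR adjusted p = 0.0012) and Txndc5 as given above. Txndc5, Derl3, Erp29 and Sel1l kept their calls in every fit with the library as block. Without the B220+2NBDG+ library 2 genes were higher in place of 8, and without the splenic B220-2NBDG+ library 4 were.

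**Figure D4:**
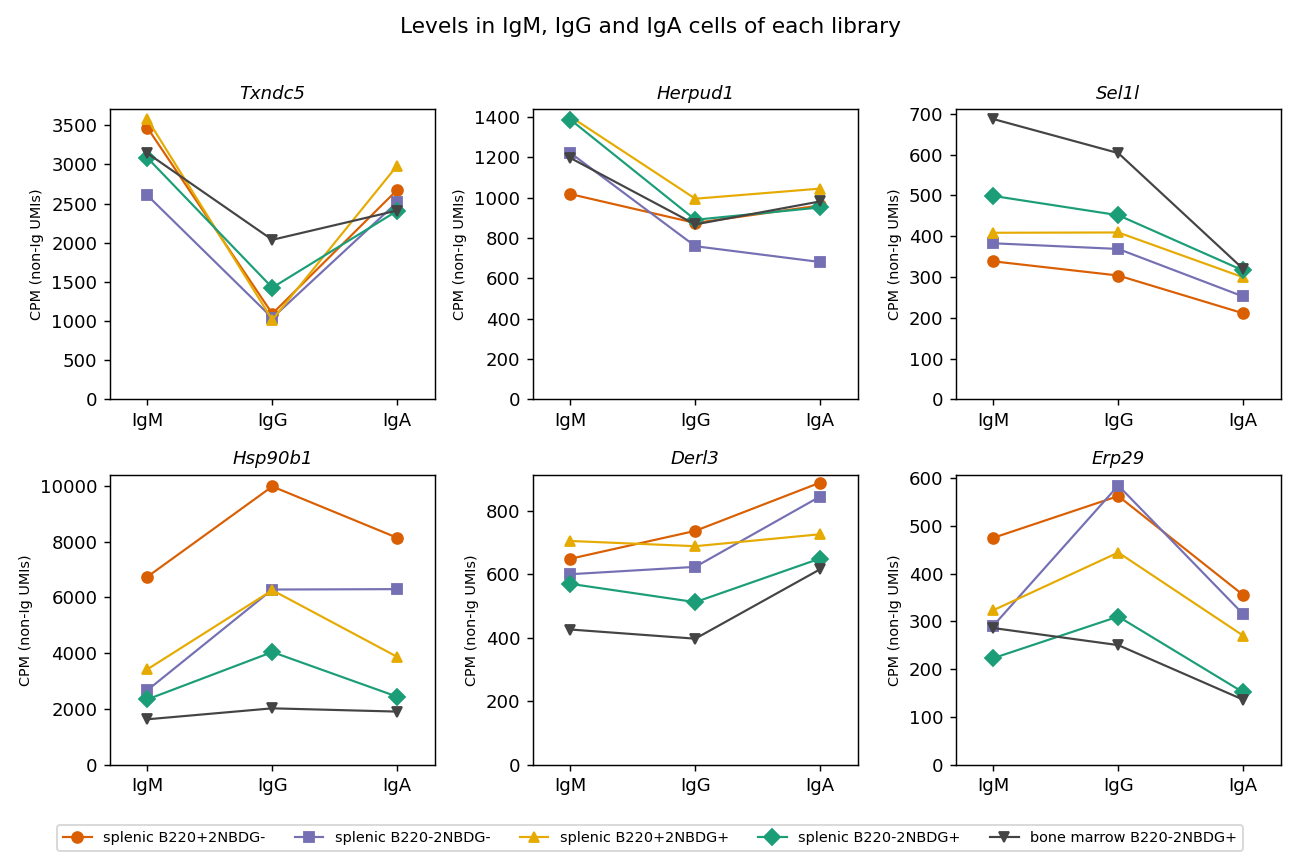
CPM over non-immunoglobulin UMIs of 6 genes in the IgM, IgG and IgA cells of each library, with 1 line per library and axes from 0. Txndc5 dips in IgG cells of all 5 libraries, Sel1l is lowest in IgA cells of all 5, and Hsp90b1 is higher in IgG than in IgM cells of all 5.

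Of the 56 further pathway genes 49 were tested between isotypes, and how their single calls held in other fits was not examined. Over all genes tested 2.59% were higher and 3.70% lower in IgG than in IgM cells. Against IgM cells, IgG cells had 3 higher (Erlec1, an ERAD lectin, 0.61 ± 0.11; Prdx4, an ER peroxidase, 0.51 ± 0.11; Ero1lb, the oxidase that feeds disulfide isomerases, 0.41 ± 0.10) and 3 lower (Ddit3, Stt3b and Herpud2). Ddit3 stood at 30.4, 56.8, 40.5, 49.8 and 41.3 CPM in IgM cells and at 15.6, 25.4, 14.2, 30.2 and 13.4 CPM in IgG cells (-1.29 ± 0.19, edgeR adjusted p = 0.00017). Stt3b, a catalytic subunit of oligosaccharyltransferase that serves chains missed on entry, stood at 204, 231, 192, 187 and 251.2 CPM in IgM cells and at 139, 124, 109, 52.4 and 48.7 CPM in IgG cells (-1.24 ± 0.18, edgeR adjusted p = 0.00015).

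IgA cells had 3 pathway genes higher than IgM cells and 7 lower, where 6.29% of all genes were higher and 6.87% lower. Pdia5, a further disulfide isomerase, was scarce, at 0.808 to 2.65 CPM in IgM and 5.81 to 12.1 CPM in IgA cells (2.19 ± 0.45, edgeR adjusted p = 0.0015), and the oxidase Ero1l was higher by 0.78 ± 0.18. Stt3b (-1.11 ± 0.18), P4ha1 (-1.03 ± 0.26) and Ddit3 (-0.72 ± 0.19) had the largest differences among the lower. Between IgG and IgA cells 7 were higher and 1, Ero1l, lower in IgG cells, where 4.94% and 4.63% of all genes were. Xbp1 was among the higher, with 4125, 3854, 5068, 5268 and 4784 CPM in IgG cells and 2450, 3244, 3768, 3516 and 3137 CPM in IgA cells (0.37 ± 0.10, edgeR adjusted p = 0.016).

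The load of antibody transcripts itself was used as a last division. Cells of each library were split at that library's median immunoglobulin share of UMIs, and the high-share and low-share groups were compared in the same way over 8223 genes. No member passed the test (edgeR 0 higher and 0 lower, DESeq2 also 0), and over all genes 0.0122% were higher and 0.146% lower. At an unadjusted p below 0.05 there were 15 of 35 members and 13.9% of all genes. The members' median was -0.11, towards lower levels in cells with the higher share.

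Calr had the largest difference, with 967, 586, 609, 495 and 329 CPM in the high-share and 1644, 833, 778, 519 and 394 CPM in the low-share cells (-0.42 ± 0.09, edgeR adjusted p = 0.13). In all 5 libraries 7 genes were lower in the high-share cells (Hspa5, Dnajb11, Sdf2l1, Manf, Calr, Pdia3 and Erp29) and 4 were higher (Txndc5, Fkbp2, Edem2 and Ern1). Of the 5821 tested genes with a mean of at least 10 CPM, 5.72% were lower and 8.66% higher in all 5. In the splenic B220+2NBDG- library 163 of the 175 cycling cells were in the low-share group. Without the cycling cluster 5 members passed the test as lower, where 61 of 8086 genes did. Without that library 3 members did, where 26 of 8226 genes did.

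Per cell, the summed share of the 35 genes overlapped widely between libraries. Outside immunoglobulin genes and Jchain the median cell gave them 5.53%, 3.89%, 4.91%, 3.73% and 3.27%. The quartiles were 4.33% and 7.05% in splenic B220+2NBDG- cells and 2.76% and 3.94% in bone marrow cells, so these 2 quartile ranges were apart. Their ranges from the 5th to the 95th percentile, 2.78% to 10.4% and 2.12% to 5.57%, overlapped. IgG medians exceeded IgM medians in all 5 libraries, by the most in B220-2NBDG- cells (5.10% against 3.71%) and by the least in bone marrow (2.96% against 2.93%). Cells are not replicates, and these values carry no test.

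**Figure D5:**
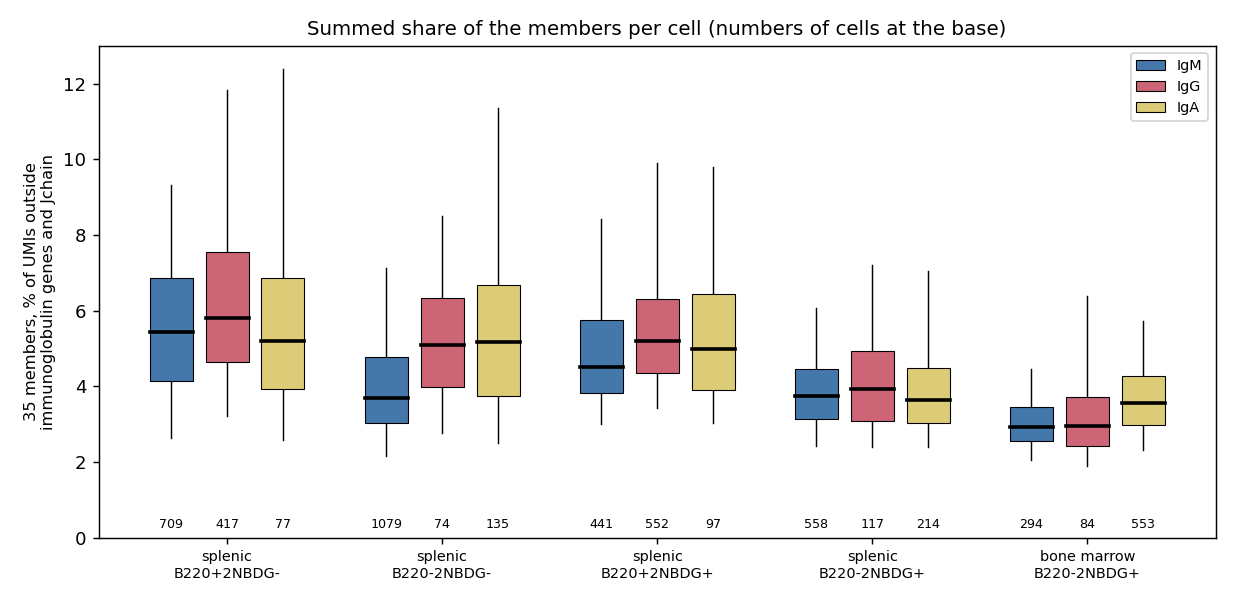
Share of UMIs outside immunoglobulin genes and Jchain taken by the 35 genes in single cells, by library and isotype. Boxes span the quartiles with the median as a line, whiskers run from the 5th to the 95th percentile, and numbers at the base are cells. The median of IgM cells is highest in the splenic B220+2NBDG- library (5.43%) and lowest in bone marrow (2.93%). Between these 2 libraries the boxes overlap in IgA cells but not in IgM or IgG cells, and the whiskers overlap in each isotype.

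Cycling cells of the splenic B220+2NBDG- library differed from its other cells gene by gene rather than as a block. Pdia6 stood at 2468 CPM in the cycling cluster and 1824 CPM outside it, and Atf6 at 60.4 and 40.3 CPM. Dnajb9 (230 and 421 CPM), Edem2 (738 and 1325), Sel1l (207 and 365) and Txndc5 (1633 and 2883) were lower in the cycling cluster. Hspa5 was level at 3855 and 3861 CPM. The cluster was defined by all non-immunoglobulin genes, so these values are given without a test.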

How the data were processed

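Single-cell libraries of the 10x 3' type were read with Cell Ranger 2.1 against GRCm38, per the submitters' processing notes. The values used are the authors' deposited UMI counts, whole numbers per gene and cell, with 1 matrix per library and 33456 genes. Of 5476 barcodes all had at least 500 UMIs, 200 genes and at most 10% mitochondrial UMIs. Cells were clustered without the 266 immunoglobulin genes (scanpy 1.11.5, 2000 variable genes, 30 components, 15 neighbours, Leiden resolution 1), and 8 T cell-like cells were left out. Scrublet marked 69 doublets (1.26%), which were kept and left out in an alternative. Counts were summed per library and divided by the non-immunoglobulin total. Library ratios counted from 2-fold where the higher level was 25 CPM from 50 UMIs, with a floor of 3 UMIs. Intervals are exact at 95% and cover counting error only. Isotypes needed 10 heavy-chain UMIs, 70% of 1 gene. Sums of at least 20 cells were tested with edgeR 4.0.16 (quasi-likelihood, TMM, Benjamini-Hochberg adjusted p under 0.05 over all genes), with DESeq2 1.42.0 as an alternative. The replicate block was the library: both isotypes of a pair come from the same pooled cells, which is where the pairing comes from. Scripts were tested on simulated data.

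The 35 members, the 56 further pathway genes and the marker lists were chosen with earlier results of these data known. Values in every library are given for Hspa5, Hsp90b1, Mzb1, Xbp1 and the members with the largest library ratios past 1.5-fold, up to 20 with a mean of at least 25 CPM. Txndc5, Herpud1, Sel1l and Derl3 were given in full after their isotype values were seen. Pathway genes are named where they passed 2-fold or the edgeR threshold. Gene positions are from GENCODE M21, promoter windows from RefSeq, GRCm38.p6. Manf overlaps Rbm15b (173 UMIs in all libraries) on the same strand, so its reads could be shared.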

Additional observations from a re-analysis of the deposited data

Results flagged for a closer look

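Between 2NBDG+ and 2NBDG- cells, 5 genes had ratios on opposite sides of 1 in B220+ and in B220- cells, each with a counting interval that excluded 1. The log2 ratio of Pdia4 was 0.35 in B220+ and -0.45 in B220- cells, that of Dnajb9 0.30 and -0.27, that of P4hb -0.44 and 0.23, that of Txndc5 -0.16 and 0.12, and that of Edem1 -0.055 and 0.23. With Jchain left out of the total, Edem1 stood at 0.10 and 0.30, on the same side, and Txndc5 at -0.0058 and 0.19. Pdia4, Dnajb9 and P4hb then stayed on opposite sides. In IgM cells alone Txndc5 was higher in the 2NBDG+ library of both pairs, by the values given above. In IgG and in IgA cells its direction differed between the pairs. Between B220+ and B220- cells, Edem3 stood at 0.49 in 2NBDG+ and -0.37 in 2NBDG- cells, from 68 to 155 UMIs a library. Each group was 1 library, so these differences between pairs were not tested.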

How the results depend on the processing

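With 1 library per group, library ratios have counting error only, and Edem3, Ern1, Eif2ak3, Hyou1 and Atf6 rested on 68 to 307 UMIs a library. The members' median log2 ratio kept its sign in all comparisons and scalings. For 2NBDG in B220+ cells it was -0.095 without Jchain, -0.84 over all UMIs, -0.17 with TMM factors and -0.32 in IgM cells. There 11 members (all UMIs) and 1 (IgM) passed 2-fold lower in place of 0, where 705 of 2458 and 200 of 4005 genes did. For 2NBDG in B220- cells the members' median was -0.026 over all UMIs and -0.066 in IgM cells. For B220 in 2NBDG+ cells it was 0.35 without Jchain, 0.25 over all UMIs, 0.40 with TMM factors and 0.34 in IgM cells. In each of these settings 0 members passed 2-fold higher in place of 1. Of all genes 82 of 4370, 32 of 1763, 80 of 3679 and 78 of 3760 did, in the same order. For B220 in 2NBDG- cells it was 0.36 without Jchain, 1.11 over all UMIs and 0.47 with TMM factors. Members past 2-fold higher there numbered 1, 18 and 1, then 4 without cycling clusters and 7 in IgM cells, in place of 2, and 1 was lower without Jchain. Of all genes 173 of 4491, 813 of 2482 and 179 of 3859 were 2-fold higher, then 113 of 3855 and 283 of 4037. Without Jchain 219 of the 4491 were 2-fold lower. For bone marrow the members' median was -0.36 over all UMIs and -0.084 with TMM factors. Without the replicate block of the library, 0 members were higher and 1 lower in IgG against IgM, 0 and 0 in IgA against IgM, and 0 higher and 2 lower in IgG against IgA. With 1 library left out at a time, 6 to 11 were higher and 2 lower in IgG against IgM, 3 to 7 higher and 1 to 2 lower in IgA against IgM, 2 to 9 higher in IgG against IgA and 0 to 3 lower in cells of high immunoglobulin share. In IgA against IgM 1 was lower, in place of 2, with DESeq2, at 90% dominance, without cycling clusters and with Jchain left out. In cells of high immunoglobulin share 9 were lower with no filter on low counts and 5 without cycling clusters, where 425 of 15474 and 61 of 8086 genes were. The cause was not tested.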
